A study of Mus musculus with 8 samples.

Results

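Transcripts of 9 genes of cytokine signaling were followed in bone marrow-derived macrophages (BMDM) treated with bilirubin. The genes are the kinase gene *Jak2*, the transcription factor genes *Stat2*, *Stat3*, *Stat5a* and *Stat6*, the inhibitor genes *Socs1*, *Socs3* and *Cish*, and the kinase gene *Pim1*. They were picked by symbol from the 53819 gene rows of the count table, and all 9 symbols were found. The choice was made with earlier results of these data known, so the set is not blind to them. Marrow of 4 female Balb/CJ mice aged 8 weeks was cultured for 5 days with M-CSF (macrophage colony-stimulating factor, 25 ng/mL). Each mouse then gave 1 culture with vehicle (DMSO) and 1 culture with 2.5 µM bilirubin, both harvested after 48 h, so that 4 vehicle libraries and 4 bilirubin libraries of poly A selected RNA were sequenced. All 8 cultures carried M-CSF, the labels name no genetic change, and the cells came from a single sex and strain. The question put to these genes was whether exposure of macrophages to bilirubin altered RNA of the JAK-STAT pathway.

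JAK kinases sit on the inner ends of cytokine receptors and phosphorylate them once a cytokine has bound. STAT proteins dock on the phosphorylated receptor, are phosphorylated in turn, pair up and enter the nucleus as transcription factors. Among the genes that they switch on are those of the SOCS family, whose proteins bind the receptor or the kinase and shut the pathway off again, and *Pim1*. STAT activity is set by phosphorylation, which RNA sequencing does not measure. In macrophages, type I interferon signals in part through STAT2, IL-6 and IL-10 through STAT3, M-CSF and GM-CSF in part through STAT5, and IL-4 and IL-13 through STAT6.

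Of the 9 genes, *Socs3* rose 2.55-fold and *Pim1* 1.14-fold with bilirubin, while *Jak2* and the 4 STAT genes did not pass the test. The level of *Socs3* went from 3.30 ± 0.233 CPM in vehicle (CPM is a gene's share of the library's counts, scaled between libraries by the TMM method; SD, n = 4) to 8.58 ± 2.19 CPM in bilirubin (SD, n = 4). *Pim1* had 48.5 ± 2.77 CPM in vehicle and 55.3 ± 2.36 CPM in bilirubin (SD, n = 4 per group). *Jak2*, *Stat2*, *Stat3*, *Stat5a*, *Stat6* and *Socs1* had log2 fold changes between -0.04 and 0.36, and *Cish* had too few counts to be tested.

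Cultures were compared within each mouse by edgeR's quasi-likelihood test, and p-values were adjusted over the 13722 genes with enough counts. An adjusted p under 0.05 was taken as passing. By this rule 2 of the 8 tested genes passed as higher and 0 as lower. Among all tested genes, 4.49% passed as higher and 3.04% as lower, or 7.53% in either direction. At an unadjusted p under 0.05 there were 3 of the 8, against 20.8% of all tested genes. The median log2 fold change of the 8 genes was 0.06, and that of all tested genes was -0.0018.

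Libraries held 34142781 to 47071714 counts on genes, with medians of 42552538 for vehicle and 38775404 for bilirubin. Macrophage identity was checked with 9 marker genes, all of them detected, whose summed level was 24312 to 24594 CPM in vehicle and 28663 to 30770 CPM in bilirubin. Of these, *Lyz2*, *Adgre1*, *Itgam* and *Cd14* rose, and the other 5 had log2 fold changes between -0.40 (*Mrc1*) and -0.02 (*Csf1r*) without passing. The median of the 9 was -0.02, and 0.35, -0.03, -0.02 and -0.08 within mice 1 to 4. Markers of T cells, B cells, NK cells, dendritic cells, erythroid cells and mast cells each summed to at most 1.47 CPM in any library, and *Cd3g* and *Ncr1* were at 0 throughout. Neutrophil and granulocyte precursor markers had a summed level of 11.5 to 14.2 CPM in vehicle and 20.2 to 32.8 CPM in bilirubin. Of the 10 markers, 3 were tested, with log2 fold changes between -0.27 and 1.07, and *S100a8* alone rose, from a mean of 11.5 to 24.4 CPM. The median of the 3 was -0.21, 1.05, 0.52 and -1.28 within mice 1 to 4, and *Retnlg* was at 0 in all libraries. Fibroblast markers summed to 0.597 to 5.94 CPM and endothelial markers to 9.88 to 18.5 CPM over all libraries. The part of these markers in the results on *Socs3* and *Pim1* was not tested. In bulk RNA, a change in the number of cells of a type and a change in RNA per cell cannot be told apart.

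Levels were compared between genes as TPM, which scales for transcript length as well as depth, averaged over the 8 libraries. *Stat6* was the most abundant at 103 TPM, with a range of 91.5 to 110 TPM that did not overlap that of any other gene of the 9. *Stat2* at 37.0 TPM, *Stat3* at 35.9 TPM and *Pim1* at 32.5 TPM came next and overlapped in range. *Jak2* at 15.3 TPM and *Stat5a* at 13.9 TPM overlapped each other. Below them were *Socs3* at 3.84 TPM (2.03 to 6.73), *Socs1* at 1.39 TPM (0.970 to 1.71) and *Cish* at 0.168 TPM (0.0138 to 0.649), none of which overlapped its neighbor in this order. The inhibitor genes were thus the least abundant transcripts of the set, in both groups.

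**Figure D1:**
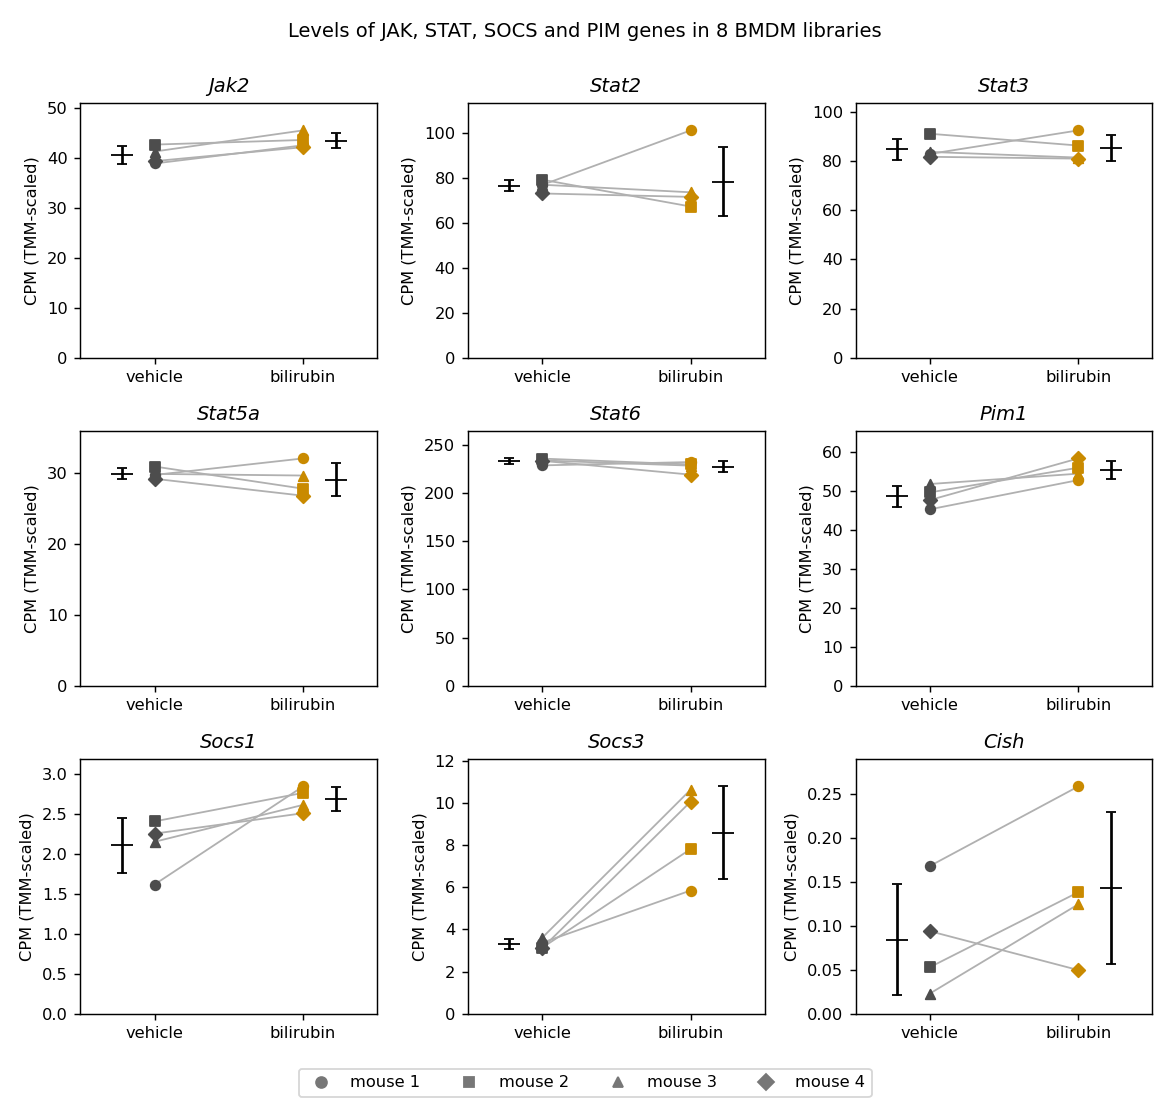
Level of each gene (y axis, TMM-scaled CPM, starting at 0) in the vehicle and bilirubin culture of each mouse (symbols joined by lines), with the mean and SD of 4 mice beside them. All 4 lines rise for Socs3, from 3.10 to 3.60 CPM in vehicle to 5.84 to 10.6 CPM in bilirubin, while those of the 4 STAT genes cross or stay flat.

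*Socs3* encodes an inhibitor that binds gp130, the shared receptor chain of the IL-6 family, together with JAK kinases, and is itself a target of STAT3. The gene lies on chromosome 11 of GRCm39 at 117856905 to 117860898, on the minus strand (ENSMUSG00000053113). In mice 1 to 4 the vehicle cultures had 3.37, 3.13, 3.60 and 3.10 CPM and the bilirubin cultures had 5.84, 7.81, 10.6 and 10.1 CPM. Every bilirubin culture was above every vehicle culture, and mouse 1 had the lowest bilirubin value. The log2 differences within mice 1 to 4 were 0.79, 1.31, 1.55 and 1.68.

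The fitted log2 fold change of *Socs3* was 1.35 (SE 0.15; 95% interval 1.00 to 1.70; edgeR adjusted p = 0.00147) or a rise of 155% with an interval of 99.4% to 225%. Of the 13722 tested genes, 111 had a log2 fold change at least as high. These levels rest on 118 to 160 counts per vehicle library and 203 to 426 counts per bilirubin library. The vehicle cultures varied by 7.06% between mice (SD over mean), against the 8.40% that counting error alone gives at this depth. *Socs3* passed under all 13 alternative analyses, with a log2 fold change between 1.23 and 1.53. The largest adjusted p, 0.0271, came with mouse 3 left out.

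The promoter of *Socs3* was read to show the letters around its start, since SOCS genes are known targets of STAT dimers. The motif TTCNNNGAA, the palindrome bound by most STAT dimers, was searched on both strands in RefSeq promoters (250 bases before to 50 after the start; table build GRCm38.p6), and was found in 8.3% of 32851 promoters of the mouse. All 9 genes had an entry, and the promoters of *Socs3* and *Cish* held the motif. They are printed from 250 bases before to 21 bases after the start, 5′ to 3′ on the gene's strand, with the motif in capitals, at the positions where the same letters were found in GRCm39 (chr11:117860172-117860442, *Socs3*, minus strand, and chr9:107173608-107173878, *Cish*, plus strand).
Socs3: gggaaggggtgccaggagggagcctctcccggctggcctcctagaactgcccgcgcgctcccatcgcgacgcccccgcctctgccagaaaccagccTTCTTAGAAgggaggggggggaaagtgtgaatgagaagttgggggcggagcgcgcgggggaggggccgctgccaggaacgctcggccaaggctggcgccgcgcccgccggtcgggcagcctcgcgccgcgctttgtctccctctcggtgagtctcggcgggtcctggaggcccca
Cish: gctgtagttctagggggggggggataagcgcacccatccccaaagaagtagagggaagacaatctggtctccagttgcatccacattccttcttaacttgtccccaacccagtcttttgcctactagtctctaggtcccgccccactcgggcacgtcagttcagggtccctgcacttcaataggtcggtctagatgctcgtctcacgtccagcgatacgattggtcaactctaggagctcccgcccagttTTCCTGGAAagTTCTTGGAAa

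In the *Socs3* promoter the motif TTCTTAGAA began 154 bases before the start. In the *Cish* promoter TTCCTGGAA began at the first base of the RefSeq transcript and TTCTTGGAA at base 12. For *Socs3* and *Cish* the RefSeq start lies inside the gene span given here from GENCODE, so these distances hold for RefSeq alone. The wider motif TTCNNNNGAA, which STAT6 dimers bind, was in 6.95% of promoters and, of the 9 genes, in that of *Stat2*, as TTCCCTAGAA from base -210. GGANTTTCC, 1 form of the NFkB motif, was in 1.25% of promoters and in 0 of the 9. Other forms of that motif and sequence beyond these promoters were not searched. These matches describe letters in the sequence, and binding was not measured. The promoters of *Socs3* and *Cish* share the motif, while their RNA levels differed, *Cish* being near the limit of detection in both groups.

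*Socs1* encodes an inhibitor that blocks the kinases themselves and is known for restraining interferon signaling (chromosome 16, 10600104 to 10603875, minus strand, ENSMUSG00000038037). Vehicle cultures had 1.62, 2.41, 2.16 and 2.26 CPM of *Socs1* in mice 1 to 4, and their bilirubin counterparts 2.85, 2.77, 2.62 and 2.51 CPM. The groups did not overlap, which held for 3 of the 8 genes with bilirubin higher (*Socs1*, *Socs3* and *Pim1*) against 5.93% of all tested genes, and for 0 with bilirubin lower against 4.69%. For *Socs1* the log2 difference ranged from 0.15 in mouse 4 to 0.80 in mouse 1. The fitted log2 fold change of *Socs1* was 0.36 (SE 0.18; 95% interval -0.04 to 0.76), and it did not pass (edgeR adjusted p = 0.302). Counts were 77 to 96 per vehicle library and 99 to 105 per bilirubin library. No alternative brought *Socs1* past the threshold, with adjusted p between 0.266 and 0.568.

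*Cish* encodes CIS, which covers the receptor sites where STAT5 docks, and is a classic STAT5 target (chromosome 9, 107173225 to 107179983, plus strand, ENSMUSG00000032578). It had 8, 2, 1 and 4 counts in the vehicle libraries of mice 1 to 4 and 9, 5, 5 and 2 counts in their bilirubin libraries. Both groups lay around 3 counts, the floor used here, so that no fold is given. Without the filter on low counts *Cish* had an edgeR adjusted p of 0.890. A change in *Cish* was not detectable at this depth.

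In the SOCS family as a whole, which has 8 genes, 7 were tested and only *Socs3* passed, as higher. The other 4 family genes with a mean of at least 1 CPM had log2 fold changes of 0.02 (*Socs4*), -0.07 (*Socs5*), -0.16 (*Socs6*) and -0.11 (*Socs7*). *Socs6* was lower in all 4 mice, as for 13.9% of tested genes, and did not pass (edgeR adjusted p = 0.0919), except with mouse 1 left out (edgeR adjusted p = 0.0147). The median log2 fold change of the 7 was -0.07.

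**Figure D2:**
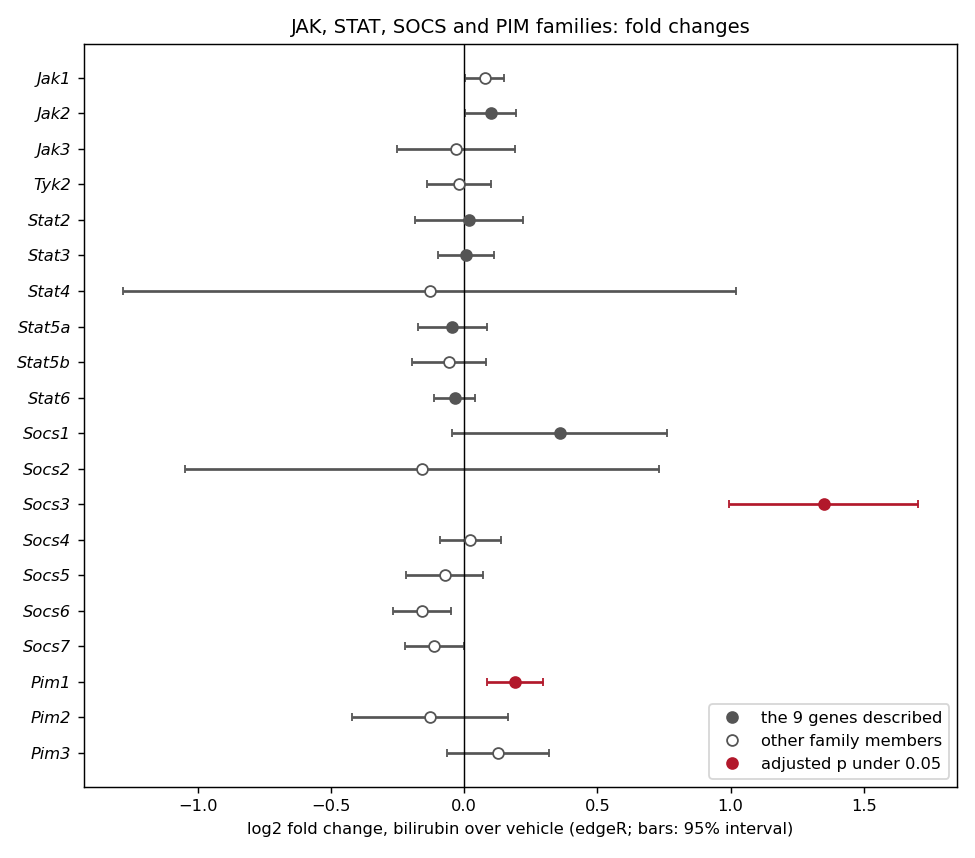
Log2 fold change of bilirubin over vehicle (x axis; edgeR, points) with its 95% interval (bars) for tested genes of the JAK, STAT, SOCS and PIM families (y axis). Socs3 at 1.35 and Pim1 at 0.19 are the red points that pass, and the interval of every JAK and STAT gene plotted, other than Jak1 and Jak2, spans 0.

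*Pim1* encodes a serine/threonine kinase that favors survival and growth and needs no upstream kinase, so that its activity follows its level, and is switched on by STAT3 and STAT5 (chromosome 17, 29709581 to 29715086, plus strand, ENSMUSG00000024014). In mice 1 to 4, *Pim1* was at 45.2, 49.6, 51.7 and 47.6 CPM with vehicle and at 52.7, 55.9, 54.4 and 58.3 CPM with bilirubin. The lowest bilirubin value, in mouse 1, was above the highest vehicle value, in mouse 3. Within mice the log2 difference ran from 0.07 in mouse 3 to 0.29 in mouse 4.

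The fitted log2 fold change of *Pim1* was 0.19 (SE 0.05; 95% interval 0.08 to 0.29; edgeR adjusted p = 0.0435), close to the threshold. The call held in 6 of 13 alternatives, and without mouse 2, 3 or 4 the adjusted p of edgeR was 0.143, 0.0862 and 0.231. It was 0.0688 without the pairing by mouse and 0.0542 in DESeq2. The direction was upward under all 13, with a log2 fold change between 0.16 and 0.23. Of the other PIM kinase genes, *Pim2* had a log2 fold change of -0.13 and *Pim3* of 0.13, and neither passed.

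*Jak2* encodes the kinase used by the receptors of interferon gamma, GM-CSF and the IL-6 family (chromosome 19, 29228677 to 29290505, plus strand, ENSMUSG00000024789). Its levels in mice 1 to 4 were 38.9, 42.7, 41.3 and 39.4 CPM with vehicle and 42.6, 43.6, 45.5 and 42.2 CPM with bilirubin. All 4 mice were higher with bilirubin, as for 14.5% of tested genes, but the groups overlapped. The fitted log2 fold change of *Jak2* was 0.10 (SE 0.04; 95% interval 0.00 to 0.20; unadjusted p = 0.0418, edgeR adjusted p = 0.218). The interval corresponds to a rise of 0.329% to 14.5%, and *Jak2* passed under 0 of 13 alternatives. None of the 4 JAK genes passed, and their median log2 fold change was 0.03.

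*Stat2* encodes a subunit of the complex formed after type I interferon (chromosome 10, 128106352 to 128128735, plus strand, ENSMUSG00000040033). Vehicle values were 76.9, 79.3, 77.0 and 73.1 CPM in mice 1 to 4, and bilirubin values were 101.2, 67.3, 73.6 and 71.6 CPM. Mouse 1 alone was higher with bilirubin, by 0.40 on the log2 scale, while the other 3 mice were lower, by up to -0.24 in mouse 2. The fitted log2 fold change of *Stat2* was 0.02 (SE 0.09; edgeR adjusted p = 0.943), and without mouse 1 it was -0.11. The 95% interval, -0.18 to 0.22, leaves room for a change in either direction.

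*Stat3* encodes the main transcription factor of IL-6 and IL-10 signaling (chromosome 11, 100775924 to 100830450, minus strand, ENSMUSG00000004040). Its levels were 83.0, 91.2, 83.8 and 81.8 CPM in vehicle and 92.6, 86.4, 81.5 and 81.1 CPM in bilirubin, in mice 1 to 4. As for *Stat2*, the bilirubin culture of mouse 1 was the highest of its group and the other 3 mice were slightly lower with bilirubin. The log2 fold change of *Stat3* was 0.01 (SE 0.05; 95% interval -0.10 to 0.11; edgeR adjusted p = 0.961), and -0.05 without mouse 1.

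*Stat5a* encodes a factor that acts downstream of GM-CSF and M-CSF (chromosome 11, 100750177 to 100776065, plus strand, ENSMUSG00000004043). Its levels were 29.7, 30.9, 29.8 and 29.2 CPM in vehicle and 32.0, 27.8, 29.6 and 26.8 CPM in bilirubin, in mice 1 to 4. Mouse 1 was again the highest with bilirubin, and the groups overlapped. The log2 fold change of *Stat5a* was -0.04 (SE 0.06; 95% interval -0.17 to 0.09; edgeR adjusted p = 0.738). *Stat5a* and its near-identical neighbor *Stat5b* shared reads. Salmon gave both genes fractions of reads that added up to whole numbers in each library, within 0.002, for example 1411.692 and 2719.31 in the vehicle culture of mouse 1. How reads were split between the 2 genes is therefore uncertain, and *Stat5b* had a log2 fold change of -0.06.

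*Stat6* encodes the factor of IL-4 and IL-13 signaling in alternative activation (chromosome 10, 127477821 to 127496862, plus strand, ENSMUSG00000002147). Its levels were 229, 236, 234 and 234 CPM in vehicle and 232, 230.0, 229 and 219 CPM in bilirubin, in mice 1 to 4. The 3 mice other than mouse 1 were lower with bilirubin, by up to -0.09 on the log2 scale in mouse 4. *Stat6* had the narrowest interval of the 8 tested genes, -0.11 to 0.04, around a log2 fold change of -0.04 (SE 0.03; edgeR adjusted p = 0.632).

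**Figure D3:**
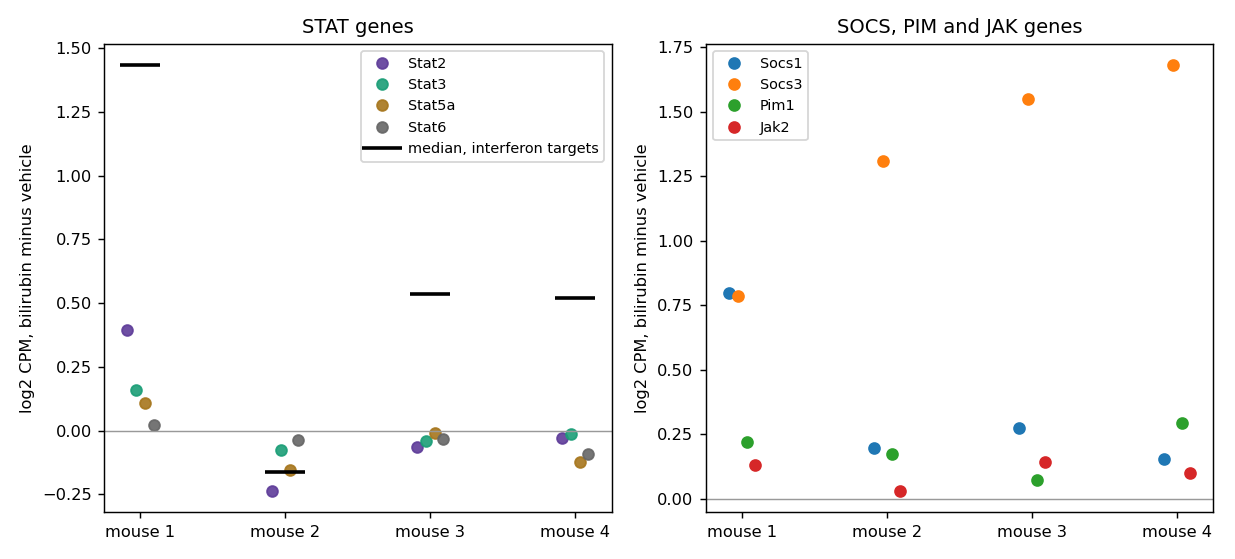
Difference in log2 CPM between the bilirubin and the vehicle culture of each mouse (y axis) for STAT genes with the median of the 21 tested interferon target genes (left, black bars) and for SOCS, PIM and JAK genes (right). Mouse 1 has the highest value of every STAT gene plotted and of the targets (median 1.43) and the lowest value of Socs3 (0.79).

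The mice differed in how these genes moved together. In mouse 1 the median log2 difference over the 8 tested genes was 0.19, and in mice 2, 3 and 4 it was -0.0034, 0.03 and 0.04. The 4 STAT genes were highest, relative to vehicle, in mouse 1, and *Socs1* was as well. *Socs3* had its smallest rise in that mouse. The 21 tested interferon target genes (genes known to be switched on by interferons) had median differences of 1.43, -0.16, 0.53 and 0.52 in mice 1 to 4. In mice 1, 3 and 4, 21, 20 and 20 of them were higher with bilirubin, against 6 in mouse 2, the mouse with the most negative difference of *Stat2*. With 1 culture per mouse and treatment, a difference between mice cannot be told apart from one between cultures.

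For *Socs3*, the 3 genes with the most similar pattern were *Pgk1*, *Nampt* and *Clec4a2*, with Pearson r of 0.9998, 0.9994 and 0.9991. These r were taken over 8 libraries after centring each mouse, which leaves 4 free differences, and are given as a description only. *Trappc5*, *Cyp4v3* and *Srpr* were closest to *Pim1* (r of 0.9992, 0.9988 and 0.9974). *Plpp1*, *Tcta* and *Rbpms* were closest to *Jak2* (r of 0.9985, 0.9980 and 0.9974).

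The transcript estimates of Salmon were read for the same genes, as shares of a gene's estimated reads and without a test, since an exact paired permutation test of 4 pairs cannot pass the threshold. In *Socs3*, *Pim1*, *Stat6* and *Stat2* a single transcript held at least 88.6% of reads in every library. *Stat3* had a main transcript with 81.7% to 89.5% of reads. *Jak2*, *Socs1* and *Stat5a* each had a transcript whose share was higher with bilirubin in all 4 mice, and these were singled out after their values were seen. How often this held for transcripts of other genes was not counted.

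For *Jak2*, transcript ENSMUST00000238009 had 54.6%, 53.2%, 54.2% and 49.2% of reads in vehicle and 57.5%, 69.7%, 68.7% and 52.1% in bilirubin, in mice 1 to 4. The rest went to ENSMUST00000065796, which has the same coding length of 3396 bases and a longer 5′ UTR, of 950 bases, in the annotation. The quantified forms were shorter than the annotated ones, 3995 against 4735 bases for ENSMUST00000238009 and 5030 against 5581 bases for ENSMUST00000065796. For *Socs1*, ENSMUST00000229866 had 14.9%, 9.84%, 11.7% and 0% (listed at 0) in vehicle and 30.4%, 12.2%, 26.6% and 33.6% in bilirubin, on a mean of 7.87 and 26.1 estimated reads. Both *Socs1* transcripts have a coding length of 636 bases in the annotation, where they too are longer than the quantified forms. For *Stat5a*, ENSMUST00000107356 had 67.3%, 70.8%, 76.0% and 67.5% in vehicle and 81.6%, 76.3%, 79.1% and 75.0% in bilirubin. The mean differences of the transcripts singled out were 9.18, 16.6 and 7.59 percentage points for *Jak2*, *Socs1* and *Stat5a*. Mice 2 and 3 carried most of the *Jak2* difference, and for each of the 3 genes the range of the vehicle shares overlapped that of the bilirubin shares.

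**Figure D4:**
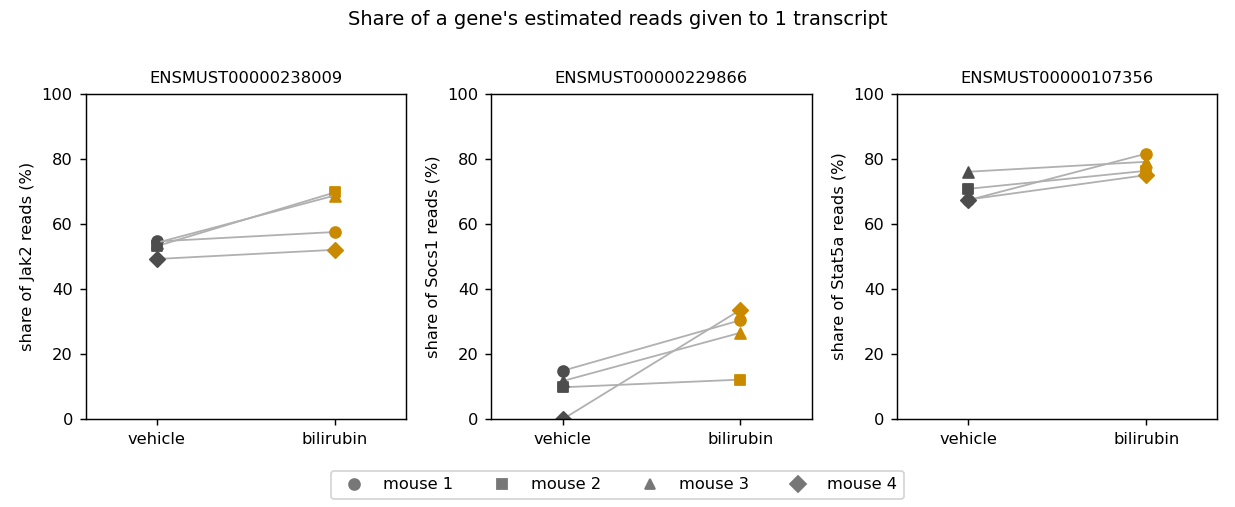
Share of a gene's estimated reads given to 1 transcript (y axis, %, 0 to 100) in the vehicle and bilirubin culture of each mouse, for Jak2, Socs1 and Stat5a. All lines slope upward, with mean differences of 9.18, 16.6 and 7.59 percentage points, for transcripts singled out after their values were seen.

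The annotation places genes on the opposite strand over 8 of the 9 loci, *Stat2* being the exception, and none on the same strand. *Stat3* and *Stat5a* overlap each other at their ends, and *Stat6* overlaps *Nab2*. Whether counting used strand is not given in the sources used here, and without strand, reads of such overlaps cannot be told apart.

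Beside the 9 genes, 136 further genes of the pathway were listed by role, of which 102 were tested. Of these, 17 passed as higher and 6 as lower, where 4.49% and 3.04% of all tested genes did, and their median log2 fold change was 0.10. The lists are described by counts and medians, without a test of a list.

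Receptor genes contributed 6 of the higher calls beyond the members. Of 13 tested genes for receptors of the common gamma and beta chain families, 4 rose and 0 fell. They were *Il2rg*, the common gamma chain (log2 fold change 1.39, edgeR adjusted p = 1.66e-05), *Csf2rb*, the common beta chain (0.64), its near-identical paralog *Csf2rb2* (0.52) and the GM-CSF receptor chain *Csf2ra* (0.20). *Csf2rb* and *Csf2rb2* may share reads, and *Csf2ra* did not pass without mouse 2 or mouse 4 (edgeR adjusted p = 0.0669 and 0.0984). Of 4 tested interferon receptor genes, *Ifngr2* (0.31) and *Ifnar1* (0.18) rose, the latter not without mouse 2, 3 or 4 (edgeR adjusted p = 0.0568, 0.241 and 0.224). Of 8 tested genes for receptors of the IL-6 and IL-10 families, *Il6st*, which encodes the gp130 chain that SOCS3 binds, fell by 0.27 on the log2 scale (edgeR adjusted p = 0.0234; 0.164 without mouse 3 and 0.115 without mouse 4).

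Of 23 genes for cytokines that act on these receptors, 5 were tested and 1 rose. It was *Ebi3*, a subunit of IL-27 and IL-35 (log2 fold change 0.52, edgeR adjusted p = 0.000711). *Il6* was at 0 in the vehicle libraries and had 2, 0, 7 and 0 counts in the bilirubin libraries of mice 1 to 4. This is a mean of 0.058 CPM with bilirubin, and *Il6* had too few counts to be tested. *Ifng* and *Il13* were at 0 in all 8 libraries. *Il10* had 1.01 ± 0.422 CPM in vehicle and 1.63 ± 0.54 CPM in bilirubin (SD, n = 4 each) and did not pass (edgeR adjusted p = 0.13).

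Of 12 genes for PIAS proteins, phosphatases and adaptors of the pathway, 2 rose and 1 fell. The phosphatase genes *Ptpn6* (0.21) and *Ptprc* (0.15) rose, and the adaptor gene *Sh2b3* fell by 0.19 on the log2 scale. Without mouse 3 or mouse 4 the edgeR adjusted p was 0.142 and 0.0932 for *Ptpn6*, 0.157 and 0.123 for *Ptprc*, and 0.100 and 0.119 for *Sh2b3*. Without mouse 2 it was 0.0768 for *Ptprc* and 0.0948 for *Sh2b3*.

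**Figure D5:**
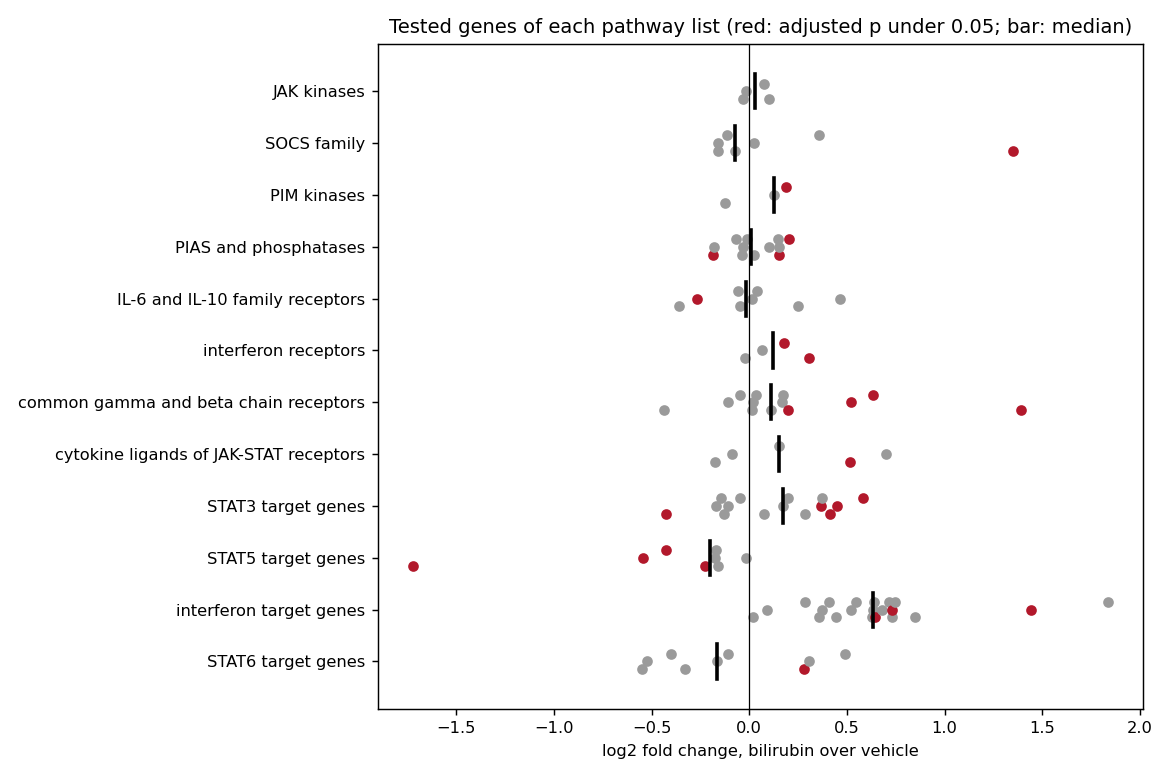
Log2 fold change of bilirubin over vehicle (x axis; edgeR) of the tested genes in each list of pathway genes (y axis); red points pass at an adjusted p under 0.05 and black bars are list medians. The medians lie between -0.20 for STAT5 targets and 0.63 for interferon targets, and Socs3 at 1.35 stands apart from the rest of the SOCS family.

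Target genes of the STAT factors were listed because RNA of a STAT does not show its activity. The lists overlap with targets of other factors, and *Bcl2l1* and *Bcl6* are on both the STAT3 and the STAT5 list. They were chosen with earlier results of these data known. Of 15 tested STAT3 targets, 4 rose and 1 fell, with a median log2 fold change of 0.17, beside 4.49% higher and 3.04% lower over all tested genes. With library size alone the counts were 4 higher and 4 lower, and without the filter on low counts 7 higher and 4 lower. The genes that rose were *Mcl1*, a survival gene (0.41), *Fos* (0.45) and *Junb* (0.36), subunits of AP-1, and *Bcl3*, a nuclear partner of NFkB (0.58). The survival gene *Bcl2l1* fell by 0.43 on the log2 scale. *Mcl1*, *Fos* and *Bcl2l1* passed under all 13 alternatives, while without mouse 3 or mouse 4 the edgeR adjusted p was 0.0532 and 0.0594 for *Bcl3* and 0.0562 and 0.0616 for *Junb*.

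Of 8 tested STAT5 targets, 0 rose and 4 fell, beside 4.49% higher and 3.04% lower over all tested genes. The median log2 fold change was -0.20. With an offset for transcript length 2 fell. The cyclin genes *Ccnd2* and *Ccnd1* fell by 1.72 and 0.54 on the log2 scale, *Bcl2l1* as above, and *Id2*, an inhibitor of helix-loop-helix factors, fell by 0.23. *Ccnd1* passed under all 13 alternatives and *Ccnd2* under 12, failing with the length offset (edgeR adjusted p = 0.0562). *Ccnd2* was low, at 2.78 CPM in vehicle and 0.871 CPM in bilirubin. *Id2* did not pass without mouse 2, 3 or 4 (edgeR adjusted p = 0.0783, 0.136 and 0.158). *Socs2*, 1 of the 8 targets, did not pass. *Stat5a* itself and *Cish*, which are also linked to STAT5 but not on this list, gave no call.

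Of 21 tested interferon targets, 3 rose, all of them guanylate-binding protein genes of the interferon response, namely *Gbp5* (1.44), *Gbp3* (0.73) and *Gbp2* (0.65). Over all tested genes 4.49% passed as higher and 3.04% as lower. The median log2 fold change of the interferon targets was 0.63, the highest of the lists. Without mouse 1 the median was 0.21 and 6 genes passed. Without mouse 2 it was 0.88, with 7 genes passing, and without mouse 3 or mouse 4 it was 0.62 and 0.61, with 0 genes passing. Without the filter on low counts 19 of 22 passed as higher, and under the other alternatives 2 to 4. Of 9 tested STAT6 targets, 1 rose, the transcription factor gene *Tfec* (0.28, edgeR adjusted p = 0.0268; 0.166 without mouse 3 and 0.165 without mouse 4), and the median was -0.16.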

How the data were processed

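Poly A selected RNA of 8 BMDM cultures (4 mice, vehicle and bilirubin) was sequenced. The authors demultiplexed reads with bcl2fastq 2.20.0.422, trimmed them with Trim Galore 0.6.7 and Cutadapt 3.4, aligned them to GRCm39 with STAR 2.7.9a and quantified transcripts with Salmon 1.10.1 (versions from the submitters' processing notes). The authors deposited estimated counts per gene (expected counts, not normalized), and per transcript the estimated counts, the TPM and the effective length. Groups came from the sample titles. Cultures were paired by the number in the title (BMDM 1 to 4), which was taken as the mouse. Transcripts of a gene were summed for TPM.

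Gene counts were rounded, filtered (filterByExpr, at least 10 counts, 15 in total), scaled by TMM and tested with edgeR 4.0.16 in R 4.3.3, with mouse and treatment in the model. The study's methods used limma with mouse as covariate, which served as an alternative (limma 3.58.1), as did DESeq2 1.42.0. Deviations from the group mean had a mean correlation of 0.0862 (-0.0053 to 0.134) between cultures of the same mouse. For different mice it was -0.0279 (-0.160 to 0.0751), and the ranges overlapped. Centring within each group ties these means to each other, so their contrast is not a test of the pairing. The Benjamini-Hochberg adjustment covered all 13722 tested genes, with a threshold of 0.05. Log2 differences within a mouse used a prior count of 2. The depth of each library is in counts on genes, and 3 counts were taken as the floor. Cultures of different mice are separate animals, and error bars are SD over mice.

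The members and gene lists were chosen with earlier results of these data known. Named beyond the members were, for each list, the genes that passed or else the gene with the smallest adjusted p, and for the 3 members with the smallest adjusted p the 3 genes with the most similar pattern (mean log2 CPM of at least 1). Other family members, *Il6*, *Il10*, *Ifng*, *Il13* and the genes sharing a locus were named after their values were seen. Positions are from GENCODE on GRCm39 and promoters from RefSeq. The procedure was tested on simulated data without differences between mice and with planted changes larger than that of *Pim1*. That test therefore covers neither the pairing by mouse nor changes as small as that of *Pim1*. Raw reads were not analysed here, and the results of some genes are not reported here.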

Additional observations from a re-analysis of the deposited data

How the results depend on the processing

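*Socs3* passed under every alternative run, *Pim1* in 6 of 13, and no other member in any. Of all tested genes 1033 passed, 616 higher and 417 lower. Without the replicate block these counts were 686, 458 and 228, without the filter 1692, 918 and 774, and with an offset for transcript length 580, 373 and 207. Leaving out each mouse gave 377 to 1910 in all, 265 to 1026 higher and 112 to 884 lower, the highest of each without mouse 1 and the lowest without mouse 3. With library size alone the share of higher calls was 48.7% in place of 59.6%. Members passing as higher numbered 2, or 1 without the replicate block, in DESeq2, with library size alone and with the length offset, and 1 to 2 with a mouse left out. The log2 fold change of *Stat2*, 0.02, reversed to -0.0080 with library size alone, to -0.0024 with the length offset and to -0.11 without mouse 1, and lay between -0.11 and 0.10 with a mouse left out. That of *Stat3*, 0.01, reversed to -0.020 with library size alone, to -0.041 with the length offset and to -0.046 without mouse 1, and lay between -0.046 and 0.034 with a mouse left out. The cause was not tested. With 77 to 160 counts per vehicle library for *Socs1* and *Socs3*, and under 10 for *Cish*, counting error is among the limits on these genes.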
